A study of Mus musculus with 16 samples.

Results

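Voltage-gated sodium channels are the membrane proteins that open on depolarization and carry the upstroke of the action potential. The 8 genes described here are the pore subunit genes Scn1a, Scn2a, Scn3a and Scn8a, the beta subunit genes Scn2b, Scn3b and Scn4b, and Nalcn, which encodes the related sodium leak channel. They were taken by symbol from the array's gene annotation, and 21 probe sets (groups of short oligonucleotides on the array that report 1 transcript region) carried 1 of these symbols and no other. These are 8 of 16206 genes and 21 of 37112 probe sets tested. Scn1a had 3 probe sets, Scn2a 4, Scn3a 2, Scn8a 4, Scn2b 3, Scn3b 2, Scn4b 1 and Nalcn 2.

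The study asked how RNA on polysomes of striatal D1 medium spiny neurons (D1-MSN) differs when these neurons lack microRNA miR-128-2. Both groups were C57BL6/J mice, aged 3 months at death, whose D1-MSN carry a tagged ribosome that was pulled down from dissected striatum before hybridization to Affymetrix arrays. The 9 deletion mice carried in addition a homozygous miR-128-2 deletion specific to D1-MSN, with 5 mice in experimental repeat 2 and 4 in repeat 1. The 7 control mice were age-matched littermates with the tagged ribosome only, with 3 mice in repeat 2 and 4 in repeat 1. The sources used here name neither the promoters that drive the tag and the deletion nor any recombinase in the controls. Each array is 1 animal, so the spread between arrays includes that between animals.

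In the action potential, pore subunits conduct the current. Beta subunits are single-pass membrane proteins that set how many channels reach the membrane and how they gate, and the beta4 subunit, made by Scn4b, is known for its abundance in striatal projection neurons and for its part in resurgent sodium current. Nalcn passes a steady inward sodium leak that brings the resting potential closer to threshold. A microRNA lowers the output of messenger RNAs that pair with its seed, the bases near its 5′ end.

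The deleted microRNA is shown because it defines the comparison. The mature miR-128-3p, 5′ to 3′ with the seed (bases 2 to 8) in capitals, is the same 21 bases from both of its genes, Mir128-1 on the plus strand at chr1:128202404-128202424 and Mir128-2 on the minus strand at chr9:112118644-112118664 (RefSeq, GRCm38.p6).
mmu-miR-128-3p: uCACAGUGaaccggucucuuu
The 2 hairpins differ outside this run, which stands in capitals in each. The Mir128-2 hairpin lies at chr9:112118636-112118711 on the minus strand and the Mir128-1 hairpin, which the labels do not name as deleted, at chr1:128202361-128202430 on the plus strand.
Mir128-2 hairpin: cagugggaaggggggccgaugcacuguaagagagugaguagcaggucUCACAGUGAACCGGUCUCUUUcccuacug
Mir128-1 hairpin: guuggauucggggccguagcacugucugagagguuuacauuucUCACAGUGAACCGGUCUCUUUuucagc
The level of miR-128 itself was not analysed here, so these arrays give no direct check of the deletion.

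All values below are on the log2 scale, and the authors deposited each probe set centred so that its median over the 16 arrays is 0. A value therefore says how far an array lies from the middle of all arrays, not how abundant a transcript is, and levels of different genes cannot be compared. A gene's value is the mean of its probe sets. A difference is deletion minus control in a limma fit with the experimental repeat as a term, given with its standard error (SE), and an adjusted p is the Benjamini-Hochberg value over all genes or all probe sets, called under 0.05.

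None of the 8 genes passed the test between deletion and control. The count of called genes was 0 of 8, with a smallest adjusted p of 0.32, beside 10 of 16206 genes (0.0617%). Among the 21 probe sets 0 were called, with a smallest adjusted p of 0.47, beside 12 of 37112 (0.0323%). The fitted difference was positive for all 8 genes, with a median of 0.11, against a median of -0.00 over all genes, of which 45.3% were positive. The sign was not shared by all member probe sets, of which 15 were positive and 6 negative with a median of 0.05. Over all probe sets 41.4% were positive and the median was -0.0034.

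The 3 beta subunit genes had the largest fitted differences of the 8, although that of Scn4b was close to that of Nalcn. Each was higher in deletion arrays at an unadjusted p under 0.05, so 3 of 8 genes did so, while 4.97% of all genes did. No member was lower at that level, as 3.71% of all genes were, a share so small that 0 of 8 says nothing about the members. Of the probe sets 4 of 21 were higher at an unadjusted p under 0.05, all of them of beta subunits, beside 3.71% of all probe sets. The median difference was 0.29 over the 3 beta subunit genes and 0.04 over the 4 pore subunit genes. In RNA pulled from bulk striatum, fewer cells of a type and less RNA per cell cannot be told apart.

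**Figure D1:**
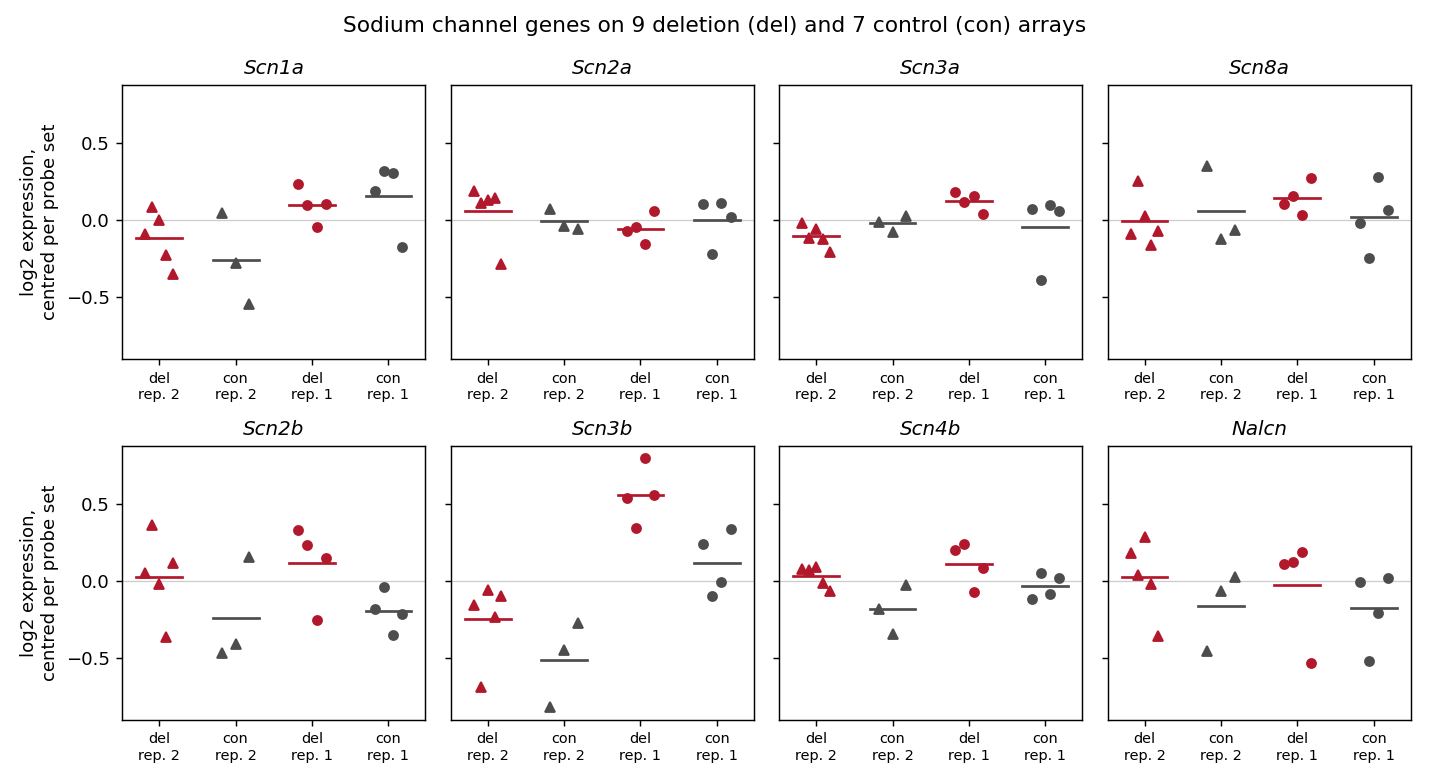
Centred log2 value of each of the 8 genes (y axis) on each array, with deletion (red) beside control (grey), experimental repeat 2 as triangles and repeat 1 as circles. Horizontal lines are group means. Scn3b does not overlap between repeats within either genotype, and its 4 deletion arrays of repeat 1 all lie above the 4 controls of that repeat.

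Scn3b encodes beta3, a subunit that associates with the pore without a covalent bond and is abundant in the developing and adult forebrain. In repeat 2 its values were -0.16, -0.70, -0.06, -0.24 and -0.10 on deletion arrays, against -0.82, -0.45 and -0.28 on control arrays. In repeat 1 they were 0.54, 0.34, 0.80 and 0.56 on deletion arrays, against 0.24, -0.10, -0.01 and 0.34 on control arrays. The ranges overlapped in repeat 2 and, by a small margin, did not in repeat 1, where the lowest deletion array was at 0.343 and the highest control array at 0.337. The difference was 0.36 ± 0.11 (SE), a 1.28-fold level with a 95% interval of 1.09 to 1.51, with an unadjusted p of 0.0061 and an adjusted p of 0.35. The control mean of the same repeat was exceeded by 8 of the 9 deletion arrays.

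The 2 probe sets of Scn3b gave unequal differences. Probe set 1426328_a_at had a difference of 0.53 ± 0.16, with all 9 deletion arrays higher than the same repeat's control mean (limma, unadjusted p = 0.0052, adjusted p = 0.48). Probe set 1435767_at had a difference of 0.18 ± 0.09 (unadjusted p = 0.062). On 1435767_at the repeat 1 deletion arrays, at 0.36 to 0.62, were all above the control arrays, at 0.10 to 0.29. The share of all genes or probe sets with ranges apart within 1 repeat was not counted. Such gaps, here and elsewhere, are therefore given as description only. With 1435767_at alone, the gene's difference is 0.18, under the mean over both probe sets by more than 1.5 times.

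Scn4b, the beta4 gene, was read by 1 probe set, 1434008_at. Its values in repeat 2 were 0.08, 0.07, 0.09, -0.02 and -0.07 on deletion arrays, against -0.19, -0.34 and -0.03 on control arrays. In repeat 1 the values were 0.20, 0.24, -0.07 and 0.08 on deletion arrays, against -0.12, 0.05, -0.09 and 0.02 on control arrays. Most deletion arrays were above 0 and most controls below it, with overlap in both repeats. The difference was 0.18 ± 0.05, a 1.13-fold level (95% interval 1.05 to 1.23), with an unadjusted p of 0.0042, the smallest among the 8 genes, and an adjusted p of 0.32. Again 8 of 9 deletion arrays exceeded the same repeat's control mean.

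Scn2b encodes beta2, which is linked to the pore by a disulphide bond. As a gene it stood at 0.05, 0.36, -0.02, -0.37 and 0.11 on the deletion arrays of repeat 2, against -0.47, -0.41 and 0.16 on the control arrays. In repeat 1 it stood at 0.33, 0.24, -0.25 and 0.15 on deletion arrays, against -0.18, -0.04, -0.35 and -0.22 on control arrays. One deletion array of each repeat was among the low values and 1 control array of repeat 2 among the high ones, so the groups overlapped. The difference was 0.29 ± 0.12, a 1.23-fold level (95% interval 1.03 to 1.46), with an unadjusted p of 0.026 and an adjusted p of 0.51.

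Its 3 probe sets gave unequal differences, positive for 1430648_at and 1436134_at and slightly negative for 1457144_at. Probe set 1430648_at read 0.05, 0.38, 0.32, -0.06 and 0.39 on the deletion arrays of repeat 2, against -1.31, -0.81 and 0.71 on the controls. In repeat 1 it read 0.31, 0.47, -0.19 and 0.29 on deletion arrays, against -0.22, -0.05, -1.16 and -0.37 on controls. The deletion arrays lay close together while the controls ranged widely, and the difference of 0.68 ± 0.25 (unadjusted p = 0.016, adjusted p = 0.60) was the largest of the 21 probe sets. Probe set 1436134_at had a smaller difference of 0.23 ± 0.07 (unadjusted p = 0.0067, adjusted p = 0.49), and its repeat 1 deletion arrays (0.08 to 0.32) were all above the controls (-0.10 to 0.02). On both of these probe sets all 9 deletion arrays exceeded the same repeat's control mean. The third, 1457144_at, had a difference of -0.03 ± 0.21.

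The authors' deposited table of p-values, from an ordinary linear model with genotype, repeat and their interaction, lists unadjusted genotype p-values of 0.0268 for 1430648_at, 0.0116 for 1436134_at, 0.0098 for 1426328_a_at and 0.0068 for 1434008_at. The deposited p of 1435767_at is 0.0794.

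**Figure D2:**
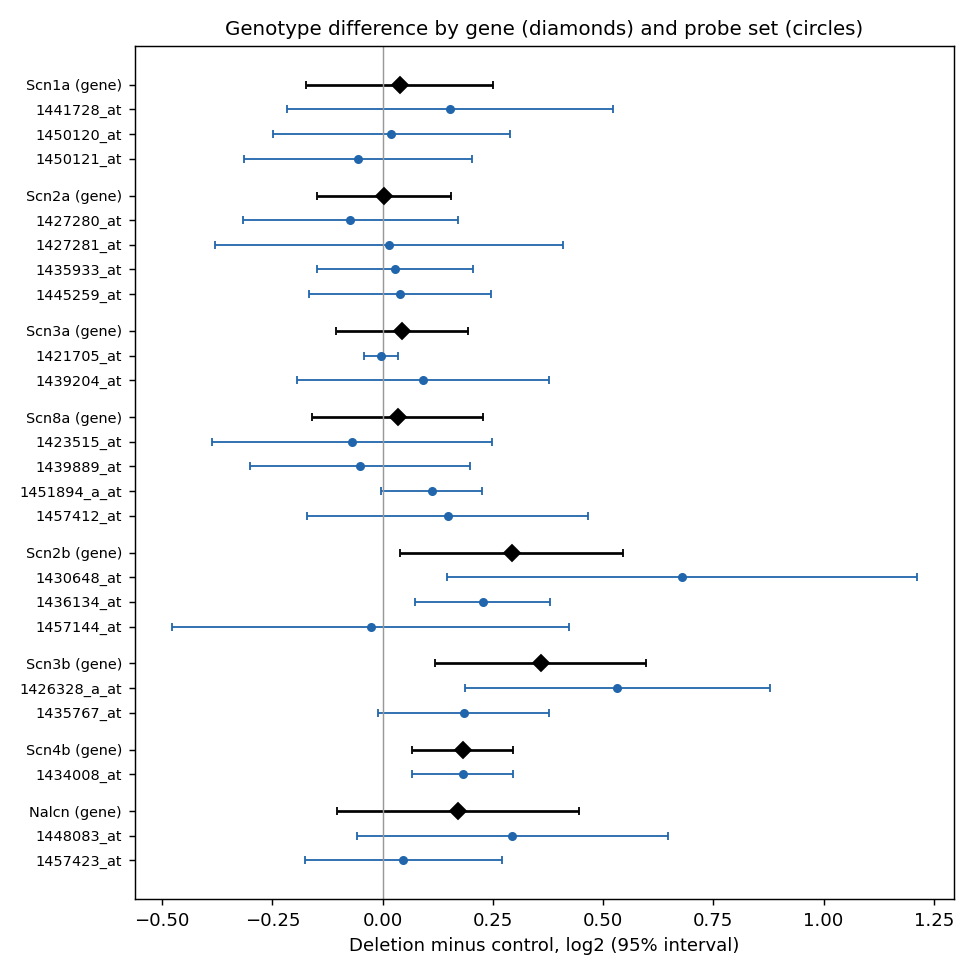
Deletion minus control difference (x axis, log2, with 95% intervals) for each gene (black diamonds) and each of its probe sets (blue circles). The intervals of Scn2b, Scn3b and Scn4b lie above 0 before adjustment, those of the other 5 genes span 0, and 1430648_at lies farthest right at 0.68.

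The pore subunit genes had small differences and wide relative error. Scn1a, the Nav1.1 gene known for its role in fast-spiking interneurons, differed by 0.04 ± 0.10, with a 95% interval of -0.17 to 0.25. Over both repeats its lowest, median and highest values were -0.35, 0.00 and 0.23 on deletion arrays, against -0.55, 0.04 and 0.32 on control arrays. Scn2a, the Nav1.2 gene of principal neurons, differed by 0.00 ± 0.07 (interval -0.15 to 0.15). Its values ran from -0.28 through a median of 0.06 to 0.19 on deletion arrays, against -0.22, 0.02 and 0.11 on control arrays. For both genes the groups overlapped throughout, and 5 of 9 deletion arrays exceeded the same repeat's control mean.

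Scn3a, the Nav1.3 gene that is high before birth, differed by 0.04 ± 0.07 (interval -0.11 to 0.19). Its deletion arrays ran from -0.21 through -0.02 to 0.18, against -0.39, 0.02 and 0.10 on control arrays. Scn8a, the Nav1.6 gene of the axon initial segment and nodes, differed by 0.03 ± 0.09 (interval -0.16 to 0.23). The deletion arrays of Scn8a ran from -0.16 through 0.04 to 0.28, against -0.25, -0.02 and 0.35 on control arrays. The intervals of these 4 gene means reached no farther than 0.25 in either direction, and the adjusted p was 0.97 or higher for each. Intervals of single probe sets reached farther, to 0.52 for Scn1a 1441728_at, 0.47 for Scn8a 1457412_at, 0.41 for Scn2a 1427281_at and 0.38 for Scn3a 1439204_at. A change seen by 1 probe set is therefore not bounded at 0.25.

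Of the 13 probe sets of pore subunit genes, 8 were higher in deletion arrays, 5 lower, and none had an unadjusted p under 0.05. The smallest p among them was that of Scn8a 1451894_a_at, with a difference of 0.11 ± 0.05 (limma, unadjusted p = 0.057). On it 9 of 9 deletion arrays were higher than the same repeat's control mean, most of them by little. Its repeat 1 deletion arrays read 0.0004, 0.34, 0.02 and 0.36, against -0.04 to 0.02 on controls. In repeat 2 deletion arrays ran from -0.02 to 0.03, against -0.10 to 0.01 on controls. The difference was 0.19 in repeat 1 and 0.03 in repeat 2. The other Scn8a probe sets stood at 0.15 (1457412_at), -0.05 (1439889_at) and -0.07 (1423515_at). The Scn1a probe sets stood at 0.15 (1441728_at), 0.02 (1450120_at) and -0.06 (1450121_at). For Scn2a the differences were 0.04 (1445259_at), 0.03 (1435933_at), 0.02 (1427281_at) and -0.07 (1427280_at). For Scn3a they were 0.09 (1439204_at) and -0.00 (1421705_at). Probe set 1421705_at hardly varied at all over the 16 arrays, with an SD of 0.033, which leaves Scn3a resting on 1439204_at.

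Nalcn differed by 0.17 ± 0.13 (interval -0.10 to 0.45), with an unadjusted p of 0.20. Its values in repeat 2 were 0.18, 0.04, 0.29, -0.02 and -0.36 on deletion arrays, against -0.46, -0.07 and 0.02 on control arrays. In repeat 1 they were 0.11, 0.12, 0.18 and -0.54 on deletion arrays, against -0.01, -0.52, -0.21 and 0.02 on controls. The same repeat's control mean was exceeded by 7 of 9 deletion arrays, and the lowest array of all, at -0.54, was a deletion array. The probe sets stood at 0.29 ± 0.16 (1448083_at) and 0.05 ± 0.10 (1457423_at).

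Within the 2 experimental repeats, the genotype difference kept its sign for the beta subunit genes and Nalcn and turned it for the 4 pore subunit genes. Scn2b differed by 0.27 in repeat 2 and 0.31 in repeat 1, Scn3b by 0.27 and 0.44, Scn4b by 0.22 and 0.15, and Nalcn by 0.19 and 0.15. The pore subunit genes Scn1a (0.15 in repeat 2, -0.06 in repeat 1) and Scn2a (0.07 and -0.06) were positive in repeat 2 alone. Scn3a (-0.08 and 0.16) and Scn8a (-0.06 and 0.13) were positive in repeat 1 alone. None of these turns passed the interaction test of limma, in which 0 of 8 member genes and 0 of 16206 genes (0%) were called. At an unadjusted p under 0.05 it had 0 of 8 member genes and 684 of 16206 genes, a share so small that 0 of 8 says nothing about the members. The smallest unadjusted interaction p among the 8 was that of Scn3a, 0.073.

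**Figure D3:**
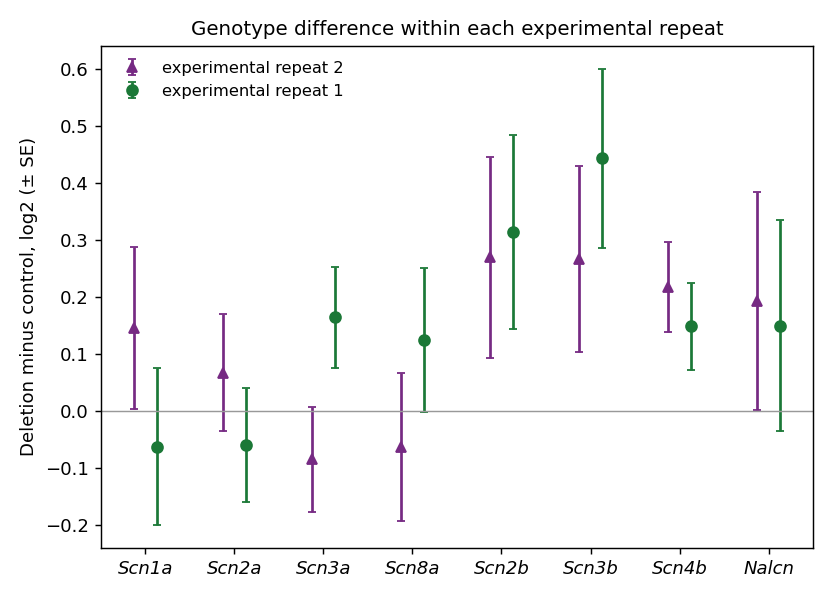
Deletion minus control difference (y axis, log2, ± SE) of each gene in experimental repeat 2 (purple triangles) and repeat 1 (green circles). The 3 beta subunit genes and Nalcn are above 0 in both repeats, and each pore subunit gene has 1 repeat on either side of 0.

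Among the 21 probe sets, 2 had an unadjusted interaction p under 0.05, beside 3.85% of all probe sets, and neither passed adjustment (adjusted p = 0.89 for both). For Scn1a 1441728_at the repeat 2 values were -0.20, 0.08, 0.04, -0.26 and -0.08 on deletion arrays, against -0.35, -0.74 and -0.999 on controls. The repeat 1 values were 0.43, 0.10, 0.01 and -0.14 on deletion arrays, against 0.52, 0.79, 0.19 and -0.01 on controls. In repeat 2 all deletion arrays were the higher ones, whereas in repeat 1 the 2 highest arrays were controls, and the differences were 0.61 and -0.28. For Scn2a 1427281_at the difference was 0.44 in repeat 2 and -0.38 in repeat 1. The other probe sets of these genes did not share the turn at an unadjusted p under 0.05.

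Scn3b also differed between the experimental repeats. Its level fell by 0.73 ± 0.11 in repeat 2 relative to repeat 1 (limma, adjusted p = 0.00066), and it was the only one of the 8 genes called, beside 14.9% of all genes. On the deletion arrays it ran from -0.70 to -0.06 in repeat 2, against 0.34 to 0.80 in repeat 1. On the control arrays it ran from -0.82 to -0.28 in repeat 2, against -0.10 to 0.34 in repeat 1. The repeats did not overlap in either genotype. Scn1a, at -0.30 ± 0.10, just missed the threshold with an adjusted p of 0.052.

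Between repeats 6 member probe sets were called, 5 lower and 1 higher in repeat 2, beside 11.9% of all probe sets. The 5 that fell were Scn3b 1426328_a_at (-0.72) and 1435767_at (-0.75), Scn2b 1436134_at (-0.30), Scn1a 1441728_at (-0.57) and Scn8a 1439889_at (-0.42). The 1 that rose was Scn8a 1457412_at (0.54), so that 2 probe sets of Scn8a moved in opposite directions and the gene's mean differed by only -0.07 ± 0.09. The labels do not say in what the repeats differed.

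A pair of control arrays stood apart from the other 14 in markers of oligodendrocytes and microglia. Replicate 1 of repeat 2 and replicate 3 of repeat 1 had means of 1.38 and 1.53 over 13 oligodendrocyte markers, against 0.44 or less elsewhere. Over 4 microglial markers they had 0.87 and 0.78, against 0.26 or less. Over 8 astrocyte markers they had 0.26 and 0.52, against 0.35 or less, so only the latter exceeded the other arrays. Over 4 vascular markers both, at 0.005 and -0.015, lay within the range of the other arrays, -0.19 to 0.11. All 13 oligodendrocyte markers were lower in deletion arrays and 0 were called. Their array means ran from -0.36 through a median of 0.08 to 0.44 on deletion arrays, against -0.33, 0.09 and 1.53 on control arrays. Without these 2 arrays no member gene or probe set was called either, and the differences were 0.27 for Scn3b, 0.21 for Scn2b, 0.17 for Scn4b and 0.10 for Nalcn. The value for Nalcn and that of Scn2b 1430648_at (0.36) were thereby lowered by more than 1.5 times. The pore subunit genes were raised by more than 1.5 times, to 0.15 for Scn8a, 0.13 for Scn1a, 0.08 for Scn3a and 0.04 for Scn2a. The median difference was then 0.21 over the beta subunit genes and 0.10 over the pore subunit genes, closer together than with all arrays. The members higher at an unadjusted p under 0.05 then numbered 2 genes. With the oligodendrocyte marker mean as a covariate the differences were 0.30 for Scn3b, 0.23 for Scn2b, 0.16 for Scn4b and 0.10 for Nalcn.

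**Figure D4:**
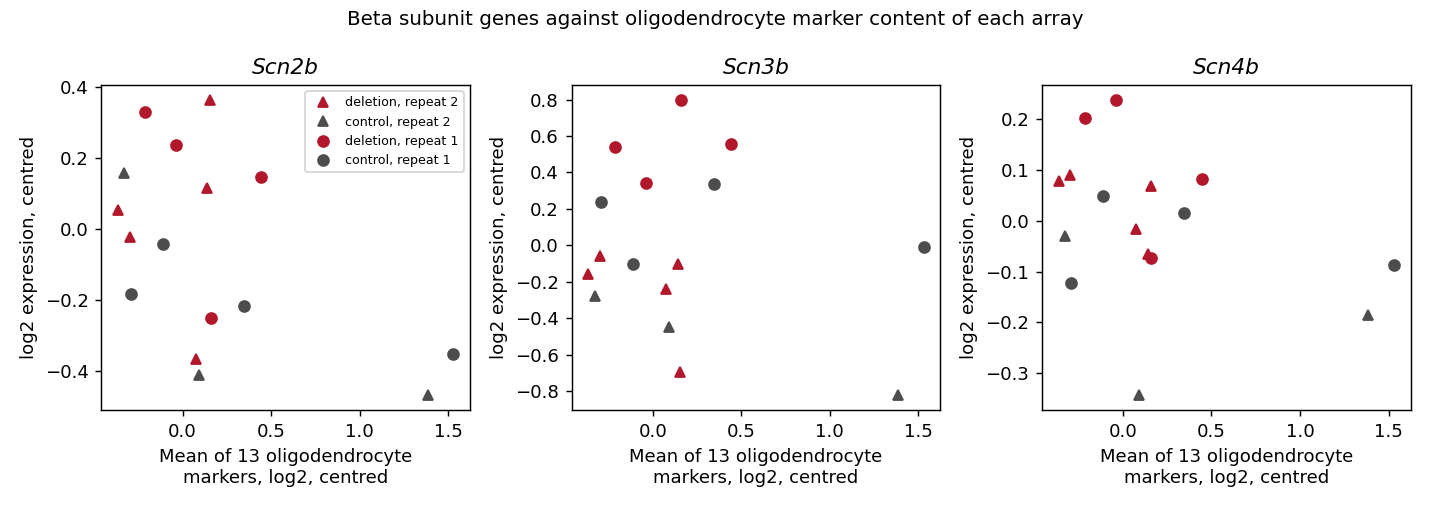
Centred log2 value of each beta subunit gene (y axis) against the mean of 13 oligodendrocyte markers (x axis, log2) on each array, with deletion in red, control in grey, repeat 2 as triangles and repeat 1 as circles. A pair of control arrays lies far right at 1.38 and 1.53. Among the remaining arrays at left, deletion and control overlap in each panel, and Scn3b is split by repeat, with repeat 1 above repeat 2 within each genotype.

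Markers of D1 neurons were compared in the same way. The mean of 8 such markers ran from -0.02 through a median of 0.11 to 0.21 on deletion arrays, against -0.21, -0.08 and 0.03 on control arrays. Of the 8, 6 were higher in deletion arrays and 0 were called, with the largest differences for Pdyn, the prodynorphin gene (0.63 ± 0.17), Slc35d3 (0.37 ± 0.08) and the D1 receptor gene Drd1 (0.20 ± 0.08). The lowest array means were those of the 2 controls rich in oligodendrocyte markers, at -0.21 and -0.20, against -0.13 or more elsewhere. The mean difference over the 8 markers was 0.19, and their part in the differences of the beta subunit genes was not tested. Of 7 striatal projection neuron markers 5 were higher and 2 lower in deletion arrays (mean 0.07), with 0 called. Markers of other neurons ran the other way in part, with 0 called. All 5 markers of cortical glutamatergic neurons were lower in deletion arrays (mean -0.30), and their array means ran from -0.89 through -0.13 to 0.41 on deletion arrays, against -0.56, 0.11 and 0.43 on control arrays. Of 5 interneuron markers 4 were lower (mean -0.24), with array means from -0.58 through -0.03 to 0.62 on deletion arrays, against -0.26, 0.16 and 0.60 on control arrays. Of 6 listed markers of D2 neurons 3 were measured (mean -0.08). Of these Penk, the proenkephalin gene, differed by -0.21 ± 0.08, Gpr6 by -0.14 ± 0.20 and Drd2, the D2 receptor gene, by 0.12 ± 0.20. The highest array means of the D2 markers were those of the 2 controls rich in oligodendrocyte markers, at 0.54 and 0.56, against 0.37 or less elsewhere. The part of these neuronal markers in the differences of the sodium channel genes was not tested either. Since values are centred, the arrays cannot show that a marker was at or near 0, and the labelled cell type could not be checked by level. As a relative measure of RNA integrity, the centred log2 value at the 5′ end of Gapdh and actin controls was taken from that at the 3′ end. It was 1.17 on replicate 2 of the repeat 2 deletion arrays and 1.82 on replicate 1 of the repeat 2 controls. It was 0.41 or less on the other 14. Since these controls are centred too, the measure compares arrays and does not give the integrity of any 1 of them. Without these 2 arrays the differences were 0.36 for Scn3b, 0.22 for Scn2b, 0.17 for Scn4b and 0.11 for Nalcn.

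Other genes of the sodium channel system were taken as a list of 33 symbols, of which 24 were measured. Of these, 7 were higher and 17 lower in deletion arrays, with a median of -0.01, and 0 were called by limma. The lone gene with an unadjusted p under 0.05 was Fgf14, which encodes an intracellular factor that binds pore subunits and differed by 0.07 ± 0.03 (limma, unadjusted p = 0.048, adjusted p = 0.57). The next by p were Ank2, an ankyrin that anchors membrane proteins (-0.10 ± 0.06, limma, adjusted p = 0.69), and Nfasc, neurofascin of the axon initial segment (-0.27 ± 0.18, adjusted p = 0.74). A further 4 pore subunit genes, Scn7a, Scn9a, Scn10a and Scn11a, lay between -0.02 and 0.01. Of 18 partners and regulators measured, 5 were higher and 13 lower. The Nalcn complex had 2 genes measured, Unc80 at 0.13 ± 0.12 and Fam155a at -0.10 ± 0.12, and neither passed the test.

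To see which members varied together apart from genotype and repeat, each value was taken as its deviation from the mean of its genotype and repeat, and all 28 pairs of genes were correlated over the 16 arrays. Arrays share tissue content and hybridization, which move many genes at once, and the median Pearson r over the 28 pairs was 0.04. The permutation moved deviations freely over the 16 arrays and made no allowance for the means taken off, so its p-values run too small. On that lenient scale, 3 pairs had an adjusted permutation p under 0.05 for Pearson's r, and a stricter test was not run. Scn1a and Scn3b moved oppositely (r = -0.75, permutation p = 0.00096, adjusted over the 28 pairs 0.027, rho = -0.79, permutation p = 0.00058, adjusted 0.016). Scn2b and Scn4b moved together (r = 0.69, permutation p = 0.0035, adjusted 0.044, rho = 0.64, permutation p = 0.0081, adjusted 0.072). Scn3a and Nalcn also moved together (r = 0.65, permutation p = 0.0047, adjusted 0.044, rho = 0.64, permutation p = 0.0083, adjusted 0.072).

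Within the 8 arrays of each repeat, r was -0.75 in repeat 2 and -0.75 in repeat 1 for Scn1a and Scn3b, 0.59 and 0.86 for Scn2b and Scn4b, and 0.68 and 0.70 for Scn3a and Nalcn. Leaving out the 2 arrays farthest from the median gave r of -0.69, 0.61 and 0.54, with adjusted permutation p of 0.20, 0.27 and 0.27, so none of the 3 relations passed without those arrays. On the values as deposited, with genotype and repeat left in, Scn1a and Scn3b had r = 0.25, opposite in sign to the value above.

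**Figure D5:**
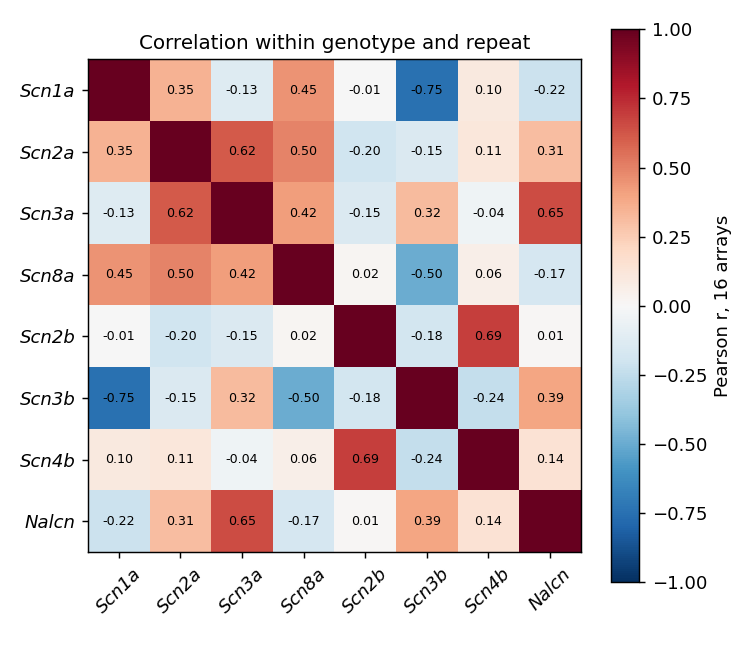
Pearson r (colour scale and number in each square) between each pair of the 8 genes over 16 arrays, after the mean of each genotype and repeat was taken off. Red is positive and blue negative, with -0.75 for Scn1a and Scn3b and 0.69 for Scn2b and Scn4b.

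Scn2b and Scn4b are neighbouring protein-coding genes in RefSeq GRCm38.p6, as are Scn2a and Scn3a. The r of Scn2a and Scn3a was 0.62 and did not pass (adjusted permutation p = 0.16), and it was 0.14 without the 2 arrays farthest from the median. The promoters of Scn2b and Scn4b are shown because these neighbours were among the pairs under the threshold for Pearson's r on the lenient scale. Their relation did not pass for rho, nor without the 2 arrays farthest from the median. Each promoter is given from 250 bases before to 50 after the RefSeq start, with each CG dinucleotide in capitals. That of Scn2b lies at chr9:45117626-45117925 and that of Scn4b at chr9:45138374-45138673, both on the plus strand.
Scn2b promoter: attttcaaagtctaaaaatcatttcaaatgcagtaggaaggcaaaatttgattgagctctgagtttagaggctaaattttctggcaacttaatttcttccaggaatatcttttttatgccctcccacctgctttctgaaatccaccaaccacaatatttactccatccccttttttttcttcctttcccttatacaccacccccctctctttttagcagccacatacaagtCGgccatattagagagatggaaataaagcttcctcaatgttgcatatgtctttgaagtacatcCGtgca
Scn4b promoter: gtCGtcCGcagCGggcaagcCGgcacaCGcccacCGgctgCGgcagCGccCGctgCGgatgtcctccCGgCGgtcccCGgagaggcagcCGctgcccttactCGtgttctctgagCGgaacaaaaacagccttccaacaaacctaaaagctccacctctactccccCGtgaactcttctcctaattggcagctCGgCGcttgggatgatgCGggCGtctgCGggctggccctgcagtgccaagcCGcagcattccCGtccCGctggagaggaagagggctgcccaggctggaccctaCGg
The 2 windows are unlike in composition. The Scn2b window is 38.3% G and C with 2 CG, and 7.45% of 32851 promoters of this length have a lower share. The Scn4b window is 66.3% G and C with 26 CG, and 84.4% of promoters have a lower share. The median promoter has 52.7% and 7 CG. Composition is given as a description, and no methylation or binding was measured.

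The genes whose deviations were most like those of Scn3b, among 8102 genes with an SD above the median over the same 16 arrays, were Ugcg (r = 0.93), C1qbp (r = 0.90) and Tgoln1 (r = 0.90). For Scn4b, among 8103 genes, they were Tmem250-ps (r = 0.85), Pick1 (r = 0.81) and Ccdc92b (r = 0.81). These are the highest of many and are given as a description.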

How the data were processed

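RNA from tagged polysomes of 16 mice was hybridized to 1 Affymetrix array per animal. Per the submitters' processing notes, signals were made with GCOS 1.4 and GCRMA. Expression was deposited on the log2 scale, with each probe set centred by the authors so that its median over the 16 arrays is 0 within 5e-07. A second deposited table repeats these values with p-values, which an ordinary linear model with genotype, experimental repeat and their interaction matches to within 1.9969e-05. Arrays carry no read depth, and their number, with 13 residual degrees of freedom, limits the precision.

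Of 37174 probe sets, 62 Affymetrix controls were left out. Genes were named from GEO's platform annotation: 29680 probe sets listed 1 gene, 819 several and 6613 none, and 29539 of the first were matched by Entrez ID to RefSeq GRCm38.p6. Probe sets with several genes were named for none. limma 3.58.1 (R 4.3.3, lmFit and eBayes, two-sided) was fitted across all probe sets, and across 16206 genes as means of their probe sets, with genotype and repeat as terms. A fit with 1 mean for each genotype in each repeat gave the within-repeat differences and the interaction. Correlations used 100000 permutations over all arrays, two-sided, with no allowance for the means taken off. The fit was tested on simulated data.

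All 8 members and their probe sets are named, as are the 3 genes of the wider sodium channel list with the smallest p, and the 3 genes most alike to Scn3b and Scn4b. Further list genes and markers are named where a count is small or a result turns on them, chosen with their values known. The members and lists were chosen with earlier results of these data known, as were the 2 control arrays left out together. The labels number the replicates in each repeat. Of 7 same-numbered pairs, 3 had a correlation of deviations over 0.1 (range -0.27 to 0.39), so the numbers were not taken as pairs. The alternatives were each array left out in turn, other designs, array weights, other normalizations, a filter on the SD and other ways to join probe sets.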

Additional observations from a re-analysis of the deposited data

Results flagged for a closer look

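Among 16 combinations of a gene and a genotype (9 deletion or 7 control arrays), 1 had an array far from the rest by Dixon's criterion, which chance meets in about 1 of 20 groups. Scn3a stood at -0.39 on replicate 2 of the repeat 1 controls. The nearest of the other control arrays was at -0.08 and the farthest at 0.10, so the gap took a share of 0.65 of the range. Without this array the Scn3a difference between deletion and control was -0.02, against 0.04 with it.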

How the results depend on the processing

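No member gene or probe set was called under any alternative run. The differences of Scn2b, Scn3b, Scn4b and Nalcn kept their sign throughout, and leaving out single arrays gave 0.25 to 0.38, 0.31 to 0.42, 0.14 to 0.21 and 0.11 to 0.25. The choice of probe sets moved them further: with the most variable probe set of each gene they were 0.68 for Scn2b, 0.53 for Scn3b, 0.18 for Scn4b and 0.29 for Nalcn. Without probe sets ending in _s_at, _x_at or _a_at, Scn3b was 0.18. Nalcn was 0.10 with the marker covariate and 0.11 without the 2 arrays of highest 3′ minus 5′ signal. The differences of the pore subunit genes turned with single arrays, from -0.035 to 0.088 for Scn1a, -0.029 to 0.039 for Scn2a, -0.022 to 0.070 for Scn3a and -0.016 to 0.11 for Scn8a. Scn1a also turned with genotype alone (-0.00016), and Scn2a with array weights (-0.037) and with probe sets of an SD above the median (-0.0064), a filter that left out the probe set of Scn4b. Member genes higher at an unadjusted p under 0.05 numbered 2 to 3 (2 to 4 with single arrays left out), and member probe sets 4 to 6 with single arrays left out and 2 with genotype alone. Scn3b was called between repeats under all alternatives in which it was run, at -0.79 to -0.67 with single arrays left out and -0.76 to -0.61 otherwise. The correlation of Scn1a and Scn3b was 0.25 on deposited values.

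Over all genes the 10 calls became 1 without the 2 control arrays rich in oligodendrocyte markers, 1 with the replicate block, 4 with genotype alone, 2 with the marker covariate, 16 with array weights, 3 with the ordinary model and 2 to 10 with single arrays left out. The 12 calls over probe sets became 0, 0, 1, 6, 27 and 0 under the same settings, 7 with arrays centred on their medians, 3 without the 2 arrays of highest 3′ minus 5′ signal (chosen after seeing the data) and 0 to 18 with single arrays left out. The cause was not tested. With the replicate block (repeat and replicate number), the differences were 0.34 for Scn2b, 0.34 for Scn3b and 0.20 for Scn4b, with no call among members.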
